A study of Mus musculus with 8 samples.

Results

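The 10 genes described here are the transcriptional co-activators Yap1 and Wwtr1 (the gene of TAZ), the DNA-binding partners Tead1 and Tead4, the kinase gene Lats2, the scaffold genes Amotl2 and Ajuba, and the target genes Ccn2 (also called Ctgf), Ccn1 (also called Cyr61) and Ankrd1. They were taken by symbol from the gene names that the deposited comparison pairs with identifiers, and all 10 were found among 55536 genes with an identifier. Of these members 9 passed the filter on low counts, as did 15375 genes in all. Ankrd1 did not pass it. RNA was measured in livers of wild-type C57BL/6 mice aged 2 months, all injected with 0.1 OD of an adenovirus and all fasted overnight before the liver was taken 1 week later. The virus of the control group (n = 4) carried a hairpin against lacZ, a bacterial gene with no mouse counterpart, and that of the knockdown group (n = 4) carried a hairpin against Eif4ebp3, which encodes a repressor of cap-dependent translation. Every animal received virus, so no sample shows an uninfected liver, and the labels do not say which liver cells took up the virus. Each sample is whole liver, in which fewer cells of a type and less RNA per cell cannot be told apart.

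In the Hippo pathway the kinases MST1 and MST2 (genes Stk4 and Stk3) activate LATS1 and LATS2, and these phosphorylate YAP and TAZ, which then stay in the cytoplasm or are degraded. Unphosphorylated YAP and TAZ enter the nucleus and bind TEAD factors, which recruit them to genes such as Ccn1, Ccn2 and Ankrd1. Lats2, Amotl2 and Ajuba encode proteins that act on the pathway, and Lats2 and Amotl2 are also counted among its target genes, as part of a negative feedback. In adult liver the pathway is known for control of organ size, and YAP protein is more abundant in bile duct cells than in hepatocytes. The activity of YAP and TAZ is set largely through phosphorylation and location, which RNA counts do not measure.

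Promoter sequences are shown because TEAD factors recognise a short core motif, GGAATG, which was searched on either strand, as GGAATG or as its reverse complement CATTCC. RefSeq windows of 300 bases, with 250 before and 50 after a start site on GRCm38.p6, were matched for 7 of the 10 members, and Ccn2, Tead1 and Tead4 had no entry. All 7 members held the motif, against 16.6% of the 27025 genes with a window. Upstream of the start site it stood in 6 of the 7, against 14.7% of all genes with a window. In Lats2 it began 5 bases into the transcript in 1 window, and the second Lats2 window held 0 motifs. Members of this kind are in part known through their TEAD sites, so the count is a description and a match is no evidence of binding. The motif is in capitals below, all sequences read 5′ to 3′ on the strand of the gene. The 250 bases before the start site are given for the 3 called members with a window and for Yap1: Ccn1 (chr3:145649986-145650235, minus strand), Ajuba (chr14:54577662-54577911, minus), Wwtr1 (chr3:57575911-57576160, minus) and Yap1 (chr9:8004597-8004846, minus).
Ccn1: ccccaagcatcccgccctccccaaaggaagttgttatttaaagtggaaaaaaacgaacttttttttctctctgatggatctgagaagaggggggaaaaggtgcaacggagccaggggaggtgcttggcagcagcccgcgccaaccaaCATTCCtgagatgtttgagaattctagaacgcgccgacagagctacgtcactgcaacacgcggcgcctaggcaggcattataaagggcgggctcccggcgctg
Ajuba: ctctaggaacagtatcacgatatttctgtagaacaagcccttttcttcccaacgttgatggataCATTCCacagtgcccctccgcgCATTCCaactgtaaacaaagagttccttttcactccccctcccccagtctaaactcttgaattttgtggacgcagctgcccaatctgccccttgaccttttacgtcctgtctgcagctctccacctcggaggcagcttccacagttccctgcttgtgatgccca
Wwtr1: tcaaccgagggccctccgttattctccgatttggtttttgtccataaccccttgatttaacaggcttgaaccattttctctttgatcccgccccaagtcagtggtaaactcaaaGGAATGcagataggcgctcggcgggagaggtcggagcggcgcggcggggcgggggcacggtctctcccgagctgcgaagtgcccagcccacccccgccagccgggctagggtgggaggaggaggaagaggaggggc
Yap1: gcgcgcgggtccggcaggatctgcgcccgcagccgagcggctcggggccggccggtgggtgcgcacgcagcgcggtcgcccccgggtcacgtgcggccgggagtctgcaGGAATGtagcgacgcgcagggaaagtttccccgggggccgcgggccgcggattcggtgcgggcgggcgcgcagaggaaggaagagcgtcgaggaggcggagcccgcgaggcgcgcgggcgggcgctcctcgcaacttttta
Stretches of 30 bases are given for the 2 motifs of Ankrd1 (chr19:36120037-36120066 and chr19:36119950-36119979, minus) and for that of Amotl2 (chr9:102717727-102717756, plus), since all 250 upstream bases of the Ankrd1 window and 136 of the Amotl2 window lie in GENCODE exons.
Ankrd1 distal: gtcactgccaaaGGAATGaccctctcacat
Ankrd1 proximal: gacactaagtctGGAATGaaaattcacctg
Amotl2: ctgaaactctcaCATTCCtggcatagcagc
Counted from the start site, the motif began at -103 in Ccn1, -186 and -164 in Ajuba, -136 in Wwtr1, -141 in Yap1, -210 and -123 in Ankrd1, and -65 in Amotl2. Ajuba and Ankrd1 held 2 motifs each, and 1.57% of all genes with a window held 2 or more. Among the other genes of the pathway listed below, 12 of 31 regulators with a window and 4 of 18 listed YAP targets with a window held the motif.

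Total counts ranged from 24371445 to 32389386 per sample. Levels are given as CPM, the count scaled to the library size after TMM normalisation. The hairpin's target, Eif4ebp3, held 289, 216, 204 and 49.3 CPM in control replicates 1 to 4 and 9.62, 13.9, 37.2 and 19.5 CPM in knockdown replicates 1 to 4, and shares exon bases with AC115631.1. Control replicate 4 was the lowest control, and it is also 1 of the 2 samples whose code in the labels has the letter D in place of C. What the letter stands for was not given in the labels. Across all genes tested, 57.2% differed between the groups (adjusted p under 0.05, edgeR), 29.5% higher and 27.8% lower in knockdown. Without normalisation factors the median gene shifted by 0.564 (log2), and the split became 9831 higher and 1187 lower, against 4528 and 4272, so all changes below are relative to the median gene. Liver marker genes were present as labelled, with 33500 to 47600 CPM of Alb, the albumin gene, in the 8 samples.

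Of the 9 members tested, 4 rose (Ajuba, Ccn1, Tead4 and Wwtr1), 0 fell and 5 did not pass the test (Ccn2, Tead1, Lats2, Amotl2 and Yap1). By edgeR at an unadjusted p under 0.05 the counts were the same, 4 higher and 0 lower, and DESeq2 and limma-voom also called 4 and 0. The share of members called, 44.4%, was below the 57.2% of all genes tested, and their median log2 fold change was 0.44, against -0.00318 for all genes. The groups did not overlap for 2 members, Ajuba and Ccn1, both higher. Of all genes tested 52.1% had no overlap, 27.4% higher and 24.7% lower. Without normalisation factors 8 members were called higher and 0 lower, beside 9831 higher and 1187 lower of all 15375 genes tested.

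**Figure D1:**
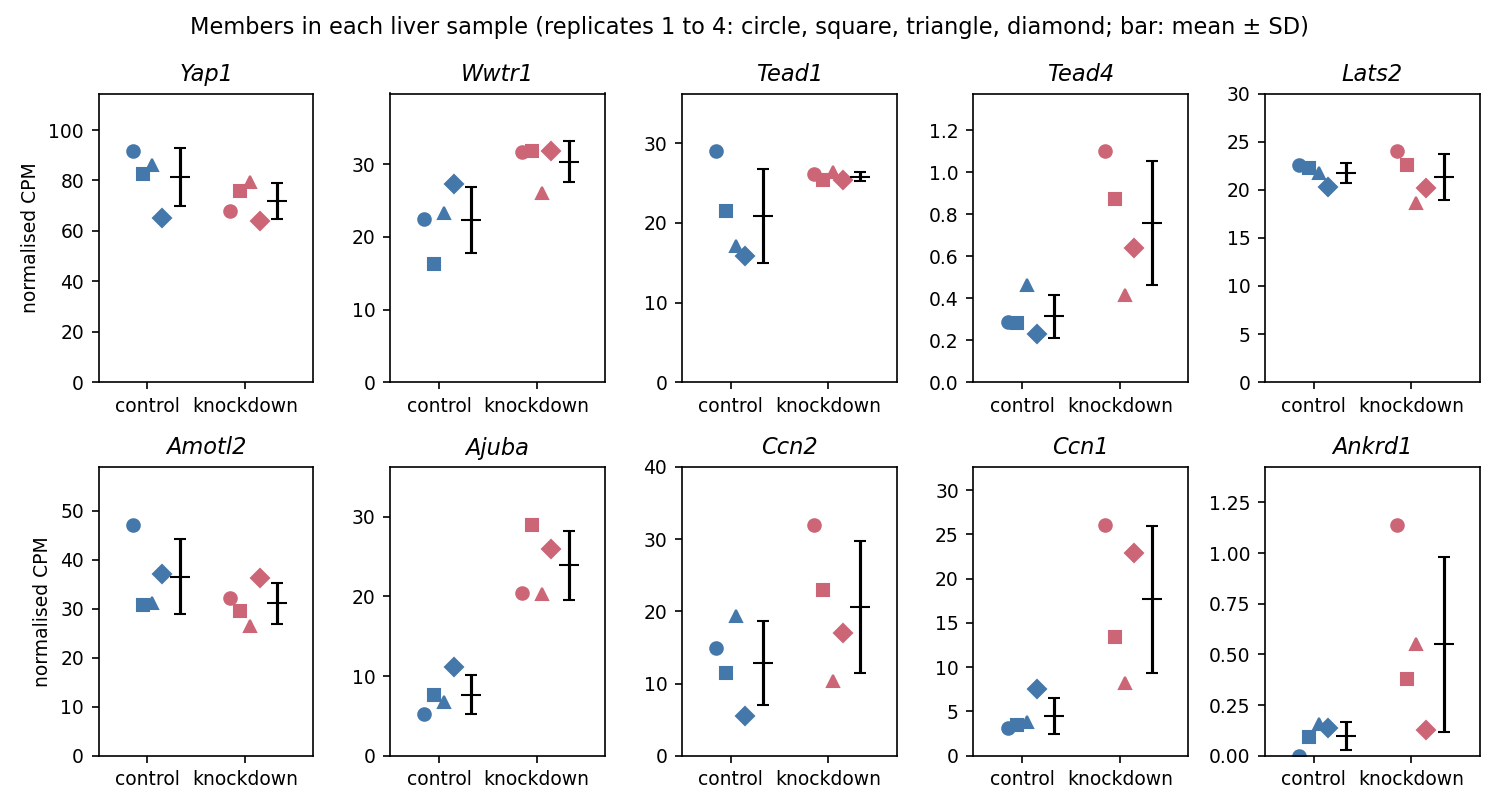
Normalised CPM (vertical axes, each from 0) of the 10 members in 4 control (blue) and 4 knockdown (red) livers, with a bar for mean ± SD. Ajuba and Ccn1 are the panels without overlap between groups, and Tead1 lies between 25.4 and 26.4 CPM in all knockdown samples but between 15.9 and 29 CPM in the controls.

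Among the co-activators, Yap1 was the more abundant transcript in each sample. Yap1 (ENSMUSG00000053110, chromosome 9, 7931999 to 8004596) held 91.6, 82.5, 86.3 and 65.1 CPM in control replicates 1 to 4 and 67.9, 75.8, 79.5 and 63.8 CPM in knockdown replicates 1 to 4. Control replicate 4 lay among the knockdown samples, and the groups overlapped. The log2 fold change of -0.18 ± 0.11 (SE) did not pass (adjusted p = 0.19, edgeR). It was -0.28 and passed without control replicate 4 (adjusted p = 0.0205, edgeR), and it was 0.39 and passed in the opposite direction under total-count scaling, so no direction is given for Yap1.

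Wwtr1, which encodes the co-activator TAZ (ENSMUSG00000027803, chromosome 3, 57455649 to 57575910), held 22.5, 16.3, 23.3 and 27.3 CPM in the controls and 31.7, 31.8, 26.1 and 31.8 CPM in the knockdown samples. Of the knockdown samples, 3 were above each control, and knockdown replicate 3 lay below control replicate 4. Wwtr1 rose 1.36-fold, by 0.44 ± 0.14 (log2, SE; adjusted p = 0.0193, edgeR), from 22.3 ± 4.55 to 30.4 ± 2.86 CPM (SD, n = 4 each). Without knockdown replicate 2 it no longer passed (adjusted p = 0.0513, edgeR), although the value was 0.42.

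The ratio of Yap1 to Wwtr1 counts within a sample does not depend on the scaling between samples. It was 4.06, 5.06, 3.7 and 2.39 in the controls and 2.14, 2.38, 3.05 and 2.01 in the knockdown samples. The lowest control lay within the range of the knockdown samples. The log2 ratio was lower by a mean of 0.64 in knockdown (-0.636), with p = 0.0571 in an exact two-sided permutation test over 8 samples, whose smallest possible p is 0.0286, and 0.143 after Benjamini-Hochberg adjustment over 3 ratios. Per kilobase of the authors' gene length, Yap1 made up 72.2 to 84.6% of the summed level of both genes in the controls and 68.6 to 76.8% in the knockdown samples. With the length of all annotated exons it made up 55.2 to 72.3% in the controls and 50.9 to 61.1% in the knockdown samples. The exons of Yap1 overlap those of Gm20416 on the other strand, and without strand the reads of the pair cannot be separated.

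TEAD factors are the DNA-binding partners through which YAP and TAZ act, and the transcripts of the family did not move alike. Tead1 (ENSMUSG00000055320, chromosome 7, 112679318 to 112906807) held 29, 21.5, 17.1 and 15.9 CPM in the controls and 26.1, 25.4, 26.4 and 25.4 CPM in the knockdown samples. Control replicate 1 was above the knockdown samples and the other controls below them. The log2 fold change of 0.31 ± 0.16 did not pass (adjusted p = 0.126, edgeR), but it was 0.50 and passed without control replicate 1 (adjusted p = 0.00408, edgeR), and 0.89 and passed under total-count scaling.

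Tead4 (ENSMUSG00000030353, chromosome 6, 128224288 to 128300823) was scarce, with 26 counts in all controls and 102 in all knockdown samples. Its levels were 0.288, 0.28, 0.463 and 0.228 CPM in the controls and 1.1, 0.872, 0.413 and 0.641 CPM in the knockdown samples. Knockdown replicate 3 lay below control replicate 3, and the other 3 knockdown samples lay above all controls. Tead4 rose by 1.27 ± 0.38 (log2, SE), 2.41-fold (adjusted p = 0.0154, edgeR), a call that was not made when a fold above 1.5 was required (adjusted p = 0.0791, edgeR). The controls held 6, 6, 9 and 5 of its counts and the knockdown samples 35, 30, 12 and 25. Tead4 therefore passed the filter on low counts only through the group in which it was higher. A filter on a mean of 1 CPM left it out, and 3 members were then higher. The ratio of Tead4 to Tead1 counts was 0.0108 to 0.0285 in the controls and 0.0163 to 0.0429 in the knockdown samples, and this difference did not pass (exact permutation p = 0.114, adjusted p = 0.143).

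The remaining TEAD genes, which are not members, moved in opposite directions without overlap. Tead2 held 0.64 to 0.816 CPM in the controls and 2.27 to 3.17 CPM in the knockdown samples and rose 3.64-fold (log2 1.86 ± 0.21 SE, adjusted p = 3.15e-05, edgeR). Tead3 held 16.5 to 20.2 CPM against 9.81 to 13 CPM and fell by 0.69 ± 0.11 on the log2 scale (adjusted p = 0.000343, edgeR), a call that was lost under total-count scaling, where the value was -0.13 (-0.125). Per kilobase, Tead3 was the highest of the 4 in the controls, at 7.46 ± 0.672 CPM per kb, before Tead1 at 2.10 ± 0.593, Tead2 at 0.336 ± 0.0373 and Tead4 at 0.102 ± 0.0332 (SD, n = 4). In the knockdown samples the order was the same, with 4.63 ± 0.551, 2.59 ± 0.0495, 1.23 ± 0.185 and 0.246 ± 0.0968 CPM per kb (SD, n = 4).

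As a share of the summed TEAD level per kb, which is free of the scaling between samples, Tead3 made up 69.6 to 78.3% in the controls and 49.8 to 57.6% in the knockdown samples. Tead1 made up 17.6 to 26.1% and 28.2 to 32.6%, Tead2 3.22 to 3.5% and 12.2 to 16.4%, and Tead4 0.817 to 1.69% and 1.46 to 4.45%. The ranges of Tead1, Tead2 and Tead3 did not overlap between groups. These shares were not tested and were described after the values had been seen. With the length of all annotated exons in place of the authors' length, Tead3 held 54.2 to 65.4% in the controls and 35.1 to 43% in the knockdown samples, where Tead1 then held 41.6 to 46.2%, so the order of Tead1 and Tead3 in knockdown rests on the length used. Tead2 shares exon bases with Cd37, a leukocyte gene on the other strand, and macrophage and lymphocyte markers were higher in the same samples, as given below.

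**Figure D2:**
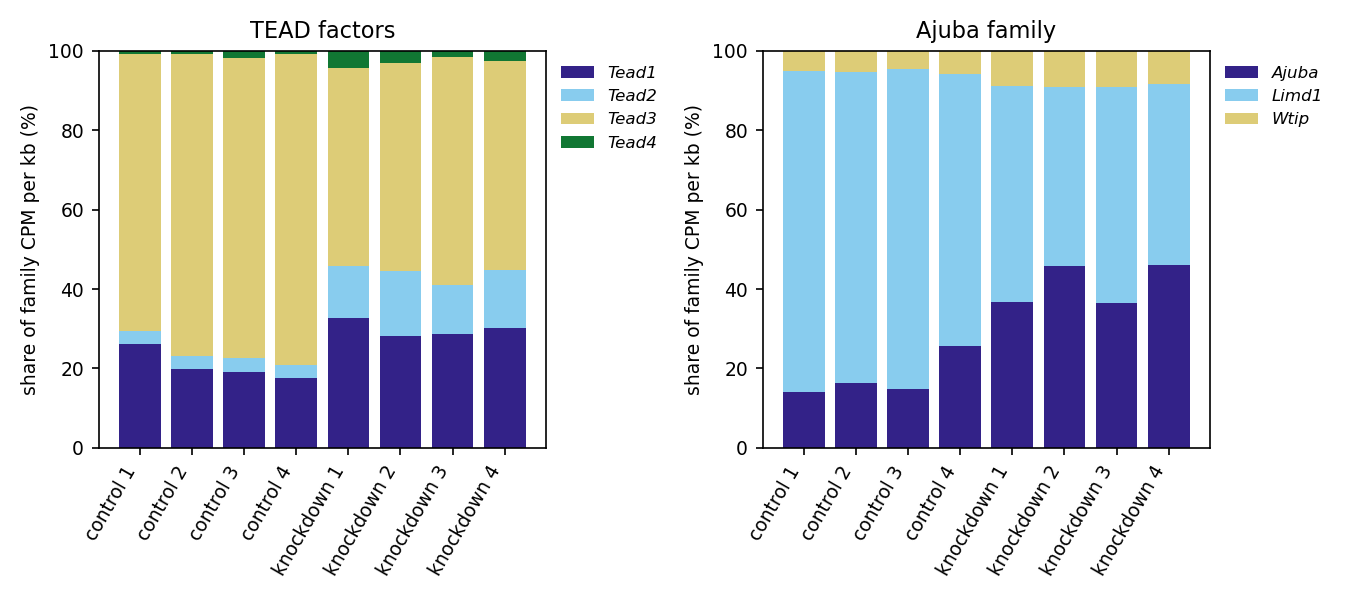
Share of each gene in the summed CPM per kb of its family (vertical axis, percent) in each of the 8 samples, for TEAD factors on the left and the Ajuba family on the right. Tead3 takes 69.6 to 78.3% of the TEAD level in controls and 49.8 to 57.6% in knockdown, and Ajuba takes 14.2 to 25.7% and 36.5 to 46.1% of its family.

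Of the members that encode regulators of the pathway, Ajuba rose while Lats2 and Amotl2 did not pass the test. Ajuba encodes a LIM-domain scaffold that binds LATS kinases at cell junctions and restrains them (ENSMUSG00000022178, chromosome 14, 54567472 to 54577558). It held 5.24, 7.67, 6.69 and 11.1 CPM in the controls and 20.4, 29, 20.3 and 25.9 CPM in the knockdown samples. Each knockdown sample lay above each control, and control replicate 4 was the highest control. Ajuba rose 3.11-fold, by 1.64 ± 0.21 (log2, SE), from 7.67 ± 2.49 to 23.9 ± 4.32 CPM (SD, n = 4 each; adjusted p = 6.86e-05, edgeR), and over all 20 alternatives the log2 fold change ranged from 1.49 to 2.19. Its promoter, shown above, holds 2 TEAD motifs.

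Ajuba made up 14.2 to 25.7% of the summed level of Ajuba, Limd1 and Wtip per kb in the controls and 36.5 to 46.1% in the knockdown samples, while Limd1 made up 68.5 to 80.8% and 45.1 to 54.4%. Wtip, the smallest of the 3, rose by 1.20 ± 0.19 (log2, SE), from 1.29 ± 0.201 to 2.98 ± 0.277 CPM (SD, n = 4 each; adjusted p = 0.000295, edgeR). Limd1 held 36.5 to 52.4 CPM over the 8 samples and did not pass.

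Lats2, the kinase gene (ENSMUSG00000021959, chromosome 14, 57689662 to 57758388), held 22.6, 22.3, 21.7 and 20.3 CPM in the controls and 24, 22.6, 18.6 and 20.2 CPM in the knockdown samples. Its groups overlapped almost fully, and its log2 fold change of -0.03 ± 0.10 (-0.0262 ± 0.0952, SE) was the nearest to 0 of the 9 members (adjusted p = 0.833, edgeR). With total counts only the value was 0.55, which passed (adjusted p = 0.00124, edgeR). Lats2 shares exon bases with Gm49361 on the same strand, so reads of the 2 genes may be mixed.

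Amotl2 encodes an angiomotin-like scaffold that holds YAP at junctions (ENSMUSG00000032531, chromosome 9, 102716672 to 102733418). It held 47.1, 30.7, 31.1 and 37 CPM in the controls and 32.2, 29.5, 26.4 and 36.2 CPM in the knockdown samples. Control replicate 1 stood above the rest, and the other 7 samples overlapped. The log2 fold change of -0.23 ± 0.14 did not pass (-0.230 ± 0.145; adjusted p = 0.197, edgeR), it was -0.09 (-0.0872) without control replicate 1, and under total-count scaling it was 0.34 (0.345; adjusted p = 0.0606, edgeR), so no direction is given.

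The secreted matricellular proteins CCN1 and CCN2 are the most used readouts of YAP and TEAD activity, and here their transcripts differed in how clearly the groups were separated. Ccn1 (ENSMUSG00000028195, chromosome 3, 145646976 to 145649981) held 3.12, 3.41, 3.81 and 7.54 CPM in the controls and 26.1, 13.4, 8.22 and 22.9 CPM in the knockdown samples. Each knockdown sample lay above each control, but knockdown replicate 3 exceeded control replicate 4 by less than 1 CPM, and the other controls lay close together. Ccn1 rose 3.94-fold, by 1.98 ± 0.38 (log2, SE), from 4.47 ± 2.06 to 17.6 ± 8.26 CPM (SD, n = 4 each; adjusted p = 0.00111, edgeR). Leaving out single samples moved the value between 1.73 and 2.35, and it was 2.21 among the samples coded C.

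Ccn2 (ENSMUSG00000019997, chromosome 10, 24595442 to 24598683) held 14.9, 11.4, 19.3 and 5.53 CPM in the controls and 32, 22.9, 10.4 and 17 CPM in the knockdown samples. Knockdown replicate 3 lay below 3 of the controls, and control replicate 4, the highest control for Ccn1, was the lowest sample of all for Ccn2. The log2 fold change of 0.69 ± 0.38 (0.690 ± 0.375, SE) did not pass (adjusted p = 0.139, edgeR), was 0.39 without knockdown replicate 1 and 0.95 without control replicate 3, and was 1.30 and passed under total-count scaling. The exons of Ccn2 overlap those of Gm15270 on the other strand.

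The ratio of Ccn2 to Ccn1 counts was 4.74, 3.33, 5.04 and 0.734 in the controls and 1.23, 1.7, 1.26 and 0.743 in the knockdown samples. Control replicate 4 lay below all knockdown samples and the other 3 controls above them. The mean log2 ratio was lower in knockdown by 1.22 (-1.22; exact permutation p = 0.143, adjusted p = 0.143), and without control replicate 4 the difference was -1.86. The difference between the responses of the 2 genes was therefore not shown. Of the other CCN genes, Ccn5 rose from 0.317 ± 0.219 to 1.75 ± 0.431 CPM (SD, n = 4 each; log2 2.43 ± 0.40 SE, adjusted p = 0.000386, edgeR). Control replicate 4 held 14 of its 27 control counts, and without it the log2 value was 3.03. Ccn4 did not pass, and Ccn3 and Ccn6 were below the filter with 21 and 6 counts in all controls.

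Ankrd1, which encodes a nuclear ankyrin-repeat protein of muscle and a classical YAP target (ENSMUSG00000024803, chromosome 19, 36111961 to 36120099), held 0, 2, 3 and 3 counts in the controls and 36, 13, 16 and 5 counts in the knockdown samples. Knockdown replicate 4 was within the range of the controls in CPM, 0.128 against 0 to 0.154, while the other 3 were above it. Too few counts kept it out of the test. Without the filter its log2 fold change was 2.47 (adjusted p = 0.0102, edgeR), and the authors' deposited table lists 1.78. That table marks 4 members as significant, Ankrd1, Ajuba, Ccn1 and Tead4, and not Wwtr1, for which it gives an adjusted p of 0.0117. After normalisation for library size, the summed counts stood in a ratio of 5.45 (95% exact counting interval 2.62 to 13.1, covering counting error only). Muscle and mesothelial markers, looked at because both tissues can border a liver sample, were scarce. Of the 2 muscle markers that passed the filter 0 were called (edgeR, 0 also at an unadjusted p under 0.05), and of the 2 mesothelial ones 1, Lrrn4, rose. Lrrn4 passed the filter only through the knockdown samples. The 9 muscle markers summed to 0.654 to 27.1 CPM in the controls and 2.1 to 8.15 CPM in the knockdown samples, and the 6 mesothelial markers to 0.502 to 6.28 and 1.48 to 4.51 CPM. Both of the highest sums were in control replicate 3, and Myh6 had 1 count in all samples together.

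**Figure D3:**
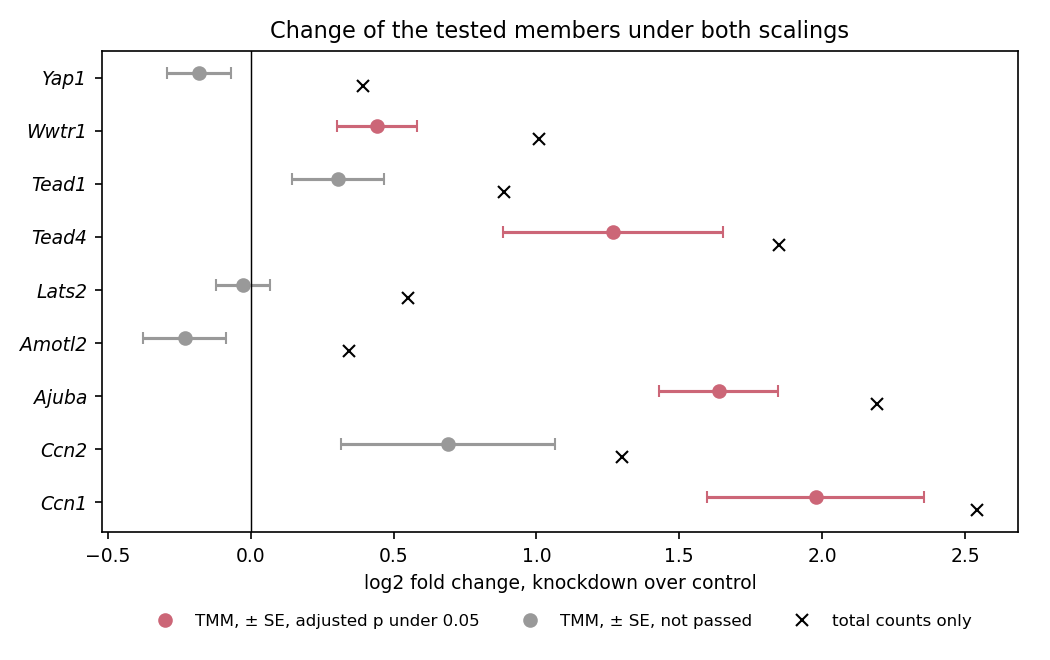
Log2 fold change of knockdown over control (horizontal axis) for the 9 members tested, with TMM normalisation (circles ± SE, red where the adjusted p was under 0.05) and with total counts only (crosses). Ajuba, Ccn1, Tead4 and Wwtr1 are above 0 and called under both scalings, while Yap1, Lats2 and Amotl2 lie left of 0 with TMM and right of 0 with total counts.

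Per kilobase of the authors' gene length, Yap1 was the highest member in the controls at 19.5 ± 2.74 CPM per kb, followed by Amotl2 at 8.64 ± 1.81 (SD, n = 4). Ccn2, Wwtr1 and Lats2, at 5.33 ± 2.42, 4.93 ± 1.00 and 4.19 ± 0.197 CPM per kb (SD, n = 4), did not differ from each other beyond their spread. The same held for Ajuba, Ccn1 and Tead1, at 2.26 ± 0.734, 2.21 ± 1.02 and 2.10 ± 0.593, and for Tead4 and Ankrd1 at 0.102 ± 0.0332 and 0.0476 ± 0.0342 CPM per kb (SD, n = 4). In the knockdown samples Yap1 was again highest at 17.2 ± 1.73, and Ccn1, Ccn2, Amotl2, Ajuba and Wwtr1 lay together between 6.70 and 8.73 CPM per kb. The place of Yap1 in knockdown rests on the length used. All annotated exons of Yap1 hold 9257 bases against the authors' 4171, while Ccn1 has 2019 by both. By exon length the mean of Yap1 was below that of Ccn1 in knockdown, but still the highest in the controls. The members also differed in their spread among replicates, from a coefficient of variation of 1.91% for Tead1 in knockdown and 4.71% for Lats2 in control to 46.9% for Ccn1 and 78.2% for Ankrd1 in knockdown.

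The genes with the nearest profile over the 8 samples were sought among 12307 genes of at least 1 CPM, by the root mean square difference of log2 CPM after each gene was centred on its mean. For Yap1 they included Wdr82 and Zfp592, with differences of 0.0513 and 0.0528 on the log2 scale. For Ccn2 they were Epha7, Dkk3 and Zfp462, at 0.319, 0.345 and 0.371. The measure grows with a gene's own spread, which was larger for Ccn2 than for Yap1, so the differences of the 2 genes are not to be compared with each other.

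The other genes of the pathway were described from lists of regulators and of reported targets. Of 11 genes of the kinase cascade, all tested, 6 fell and 3 rose, with a median log2 fold change of -0.326 against -0.00318 for all genes. The share called was 81.8%, beside 57.2% of all genes tested (29.5% higher and 27.8% lower). Mob1b, a co-activator of LATS kinases, fell from 58.6 ± 3.08 to 40.6 ± 2.71 CPM, Nf2, the gene of the membrane scaffold merlin, from 34.9 ± 3.83 to 22.5 ± 3.49 CPM, Taok1 from 66.8 ± 1.97 to 53 ± 3.15 CPM and Taok2, like Taok1 a kinase that activates MST, from 136 ± 22.2 to 95.1 ± 5.72 CPM (SD, n = 4 each). None of these 4 was called lower under total-count scaling. There Mob1b (0.0414), Taok1 (0.236) and Taok2 (0.0645) changed sign (log2), and Taok1 was called higher (adjusted p = 0.0274, edgeR). Under that scaling 0 of the 35 tested regulators of all lists were lower and 24 higher by edgeR. Of all 15375 genes tested, 9831 were then higher and 1187 lower. Map4k4, another upstream kinase, rose by 1.18 ± 0.13 (log2, SE), from 24.4 ± 4.31 to 55.2 ± 5.98 CPM (adjusted p = 2.03e-05, edgeR), the scaffold gene Sav1 by 0.40 ± 0.12 and the MST1 gene Stk4 by 0.22 ± 0.08. The call of Stk4 was lost with DESeq2, with limma-voom, without the filter, at a minimum fold of 1.5, and without any 1 of control replicates 1, 2 and 3 or knockdown replicates 1, 2 and 4 (adjusted p of 0.0538 to 0.132, edgeR). That of Sav1 was lost without knockdown replicate 2 (0.31, adjusted p = 0.0565, edgeR), among the samples coded C (0.37, adjusted p = 0.057, edgeR) and at a minimum fold of 1.5.

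Of 15 upstream regulators, 6 rose and 1 fell, and the share called, 46.7%, was below the 57.2% of all genes tested. Rassf1, a binding partner of MST kinases, rose from 9.74 ± 1.73 to 23.4 ± 1.57 CPM, the FERM-domain gene Frmd6 from 4.68 ± 0.8 to 13.4 ± 1.98 CPM and the polarity gene Llgl1 from 11.2 ± 2.33 to 20.6 ± 2.41 CPM (SD, n = 4 each). Rassf6 fell by 0.49 ± 0.15 on the log2 scale, a call that was lost under total-count scaling. Of 5 LIM genes related to Ajuba, 3 rose, namely Trip6, Wtip and the zyxin gene Zyx, and 1, Lpp, fell, beside 29.5% of all genes tested that were higher and 27.8% that were lower. Zyx rose from 53.2 ± 12.2 to 91.7 ± 5.4 CPM and Trip6 from 16.5 ± 1.83 to 28.6 ± 1.55 CPM, whereas Lpp fell from 96 ± 4.24 to 63.2 ± 2.27 CPM (SD, n = 4 each), a call that was also lost under total-count scaling. Of the VGLL co-factors, which bind TEAD factors as well, Vgll3 and Vgll4 did not pass, Vgll1 had 0 counts and Vgll2 had 1 count.

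Among reported YAP targets outside the members, more rose than fell. Of 15 tested genes of a published YAP signature, 8 rose and 2 fell (median log2 fold change 0.602), and of 11 other tested targets, 7 rose and 0 fell (median 1.34). At an unadjusted p under 0.05 edgeR gave the same counts for both lists, and DESeq2 and limma-voom called 15 higher and 2 lower of the 26 genes together, as edgeR did. The shares called, 66.7% and 63.6%, stood beside 57.2% of all genes. Total-count scaling gave 21 higher and 1 lower, beside 9831 higher and 1187 lower of all 15375 genes tested.

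The receptor tyrosine kinase gene Axl held 40 to 46.7 CPM in the controls and 107 to 158 CPM in the knockdown samples and rose 2.92-fold (adjusted p = 2.84e-06, edgeR). The ligand gene Tgfb2 rose 9.46-fold, from 0.398 ± 0.164 to 3.78 ± 0.552 CPM, Myof, which encodes the membrane-repair protein myoferlin, 4.31-fold, from 6.33 ± 0.835 to 27.4 ± 7.44 CPM, and the ecto-nucleotidase gene Nt5e 2.99-fold, from 7.21 ± 0.291 to 21.5 ± 4.45 CPM (SD, n = 4 each). Igfbp3, a binding protein of insulin-like growth factors, fell to 0.311-fold, from 13.6 ± 4.95 to 4.23 ± 0.65 CPM (SD, n = 4 each; adjusted p = 0.000242, edgeR), and Dock5 fell by 0.29 ± 0.08 on the log2 scale but was 0.28 and called higher under total-count scaling. Of the other targets, the cyclin gene Ccnd1 rose 5.09-fold, from 10.2 ± 1.5 to 51.8 ± 8.04 CPM, Anxa3 2.75-fold and the mitotic gene Birc5 2.54-fold, from 3.59 ± 0.781 to 9.14 ± 0.298 CPM (SD, n = 4 each). The growth factor gene Areg had a single count, in control replicate 3, and 111 counts over the knockdown livers. It thus passed the filter on low counts only through the knockdown samples. Areg rose 49.1-fold (adjusted p = 4.72e-05, edgeR). Its summed counts stood in a ratio of 69.1 after normalisation for library size (95% exact counting interval 12.2 to 2750, covering counting error only). A filter on a mean of 1 CPM left Areg out, and 14 targets were then higher. Of the 40 genes named by rule, 15 share exon bases with another gene, among them Ccnd1, Tgfb2, Anxa3, Rassf1, Llgl1, Zyx, Lpp, Sav1 and Taok1, and their counts are uncertain to that extent.

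**Figure D4:**
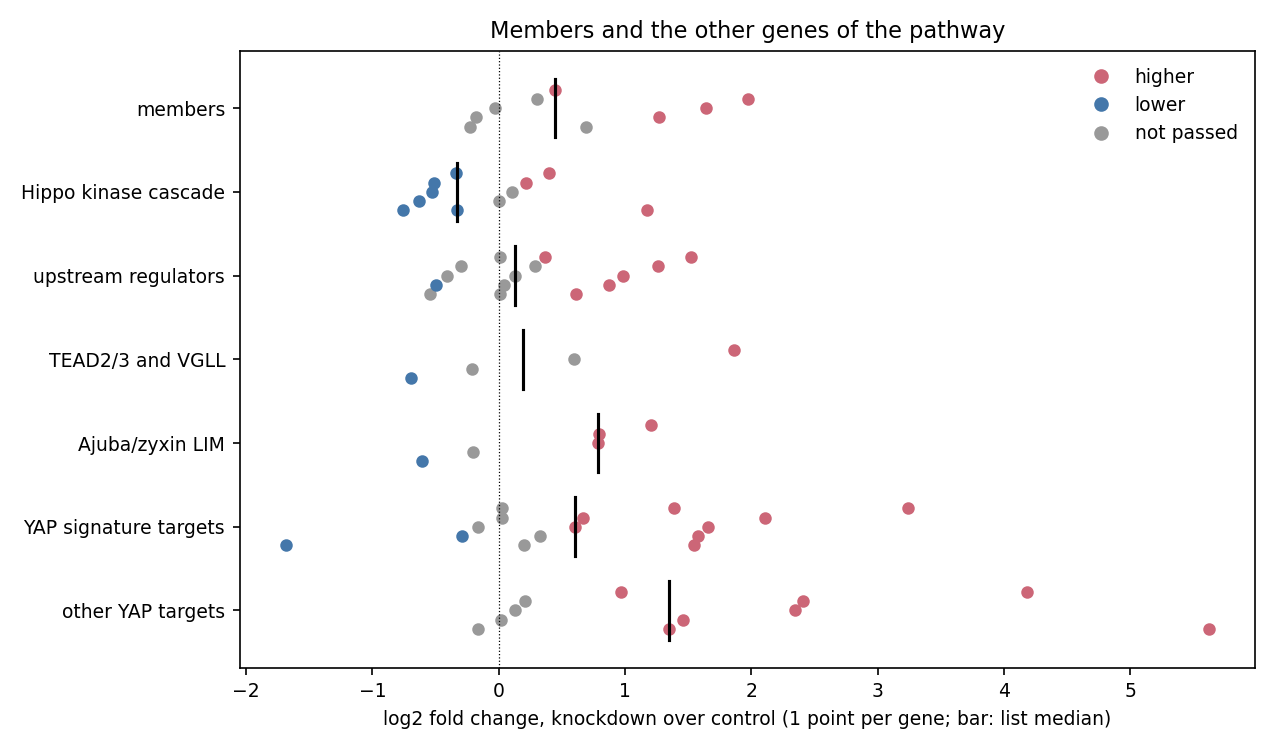
Log2 fold change of knockdown over control (horizontal axis) for each tested gene, 1 point per gene, in the lists named on the vertical axis, with the list median as a bar and colours for higher, lower and not passed. The median of the kinase cascade is -0.326, and those of the 2 target lists are 0.602 and 1.34.

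Several of these genes are also expressed by cell types whose markers differed between the groups. The marker counts below stand beside 57.2% of all genes tested that were called, 29.5% higher and 27.8% lower. Of 18 stellate cell and fibroblast markers, 12 rose and 1 fell, and their summed level was 370 to 476 CPM in the controls and 746 to 1260 CPM in the knockdown samples. The collagen gene Col1a1 held 8.32 to 17.7 and 99.5 to 181 CPM, and Lrat, which marks quiescent stellate cells, 9.96 to 14.5 and 12.3 to 23.2 CPM. Knockdown replicate 1, the highest sample for that sum, was also the highest for Ccn1, Ccn2, Tead4, Ankrd1, Axl and Myof, and knockdown replicate 3, the lowest knockdown sample for the sum, was the lowest of its group for Ccn1, Ccn2 and Tead4. Other members did not follow this order: Ajuba was highest in knockdown replicate 2 and held 20.4 CPM in replicate 1, Wwtr1 held 31.7 to 31.8 CPM in replicates 1, 2 and 4, and Ankrd1 was lowest in replicate 4. The order was not particular to the stellate cell and fibroblast sum. Among knockdown samples, the endothelial and the T, NK and B cell sums given below were also highest in replicate 1 and lowest in replicate 3. The macrophage and cholangiocyte sums were highest in replicate 1 but lowest in replicate 4. The hepatocyte sum ran the other way, lowest in replicate 1 and highest in replicate 3. Of 9 tested cholangiocyte markers, 6 rose and 1 fell, with sums of 69.2 to 88.1 and 107 to 143 CPM, while the defining keratin gene Krt19 did not pass at 0.0914 to 1.18 and 0.667 to 1.27 CPM. Of those that rose, Krt7, Tspan8 and Cldn7 passed the filter on low counts only through the knockdown samples. Of 9 tested macrophage markers 7 rose, with sums of 310 to 421 and 677 to 813 CPM, Adgre1 at 27.4 to 42.2 and 75.4 to 111 CPM. Clec4f, at 56.4 to 99.6 and 75.6 to 111 CPM, and Cd163 did not pass, and Timd4 was below the filter. Of 8 tested markers of T, NK and B cells 6 rose, with sums of 7.92 to 19.6 and 36.1 to 48.6 CPM, Cd3e at 0.926 to 2.06 and 3.75 to 5.59 CPM. Cd3d and Cd3g, which rose, also passed the filter only through the knockdown samples. Of 10 endothelial markers 1 rose and 2 fell, a share called of 30%, with overlapping sums of 381 to 411 and 247 to 438 CPM, Pecam1 at 24.3 to 25.9 and 22.4 to 34.3 CPM. Of 12 hepatocyte markers 10 fell and 0 rose (edgeR, 0 also at an unadjusted p under 0.05). Among all these markers every gene had at least 1 count over the 8 samples, and the part of these cell types in the values of the members was not tested.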

How the data were processed

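Per the labels' protocols, RNA was extracted with Trizol, treated with DNaseI and depleted of ribosomal RNA. The submitters' processing notes name SAMtools 1.9, GATK 3.8, Bowtie2 2.2.9, fastp 0.19.5 and the build mm10. Which program counted reads was not given in the sources used here, nor was strandedness. The authors deposited estimated counts per gene, of whose values 10.9% are not whole, and these were rounded. The 645 assembled loci without an identifier, 0.676 to 1.08% of counts, were left out. The deposited comparison gives the authors' fold change (a ratio), its log2 value, and p-values and adjusted p-values, with DESeq2 in its name.

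Groups were compared with edgeR 4.0.16 in R 4.3.3: filterByExpr, TMM factors, glmQLFit and glmQLFTest, Benjamini-Hochberg adjustment over all genes tested. The procedure was tried on simulated data with few changed genes, as many up as down. That trial does not bear on the choice of scaling, since far more genes differed in these data. The filter keeps a gene with enough counts in as many samples as a single group holds. Tead4, Areg, Ccn5 and Tgfb2 met it through the knockdown samples and not through the controls. Among the called markers, the same held for Lrrn4, Krt7, Tspan8, Cldn7, Cd3d and Cd3g. Positions are from GENCODE mouse release M21, promoters from RefSeq on GRCm38.p6. The labels do not say that replicates were separate animals, so p-values measure only the spread between these samples, which may be technical. Replicates differed by at least 8.94 in chi-square per degree of freedom.

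The members and lists were chosen with earlier results of these data known. Named genes were the members, Eif4ebp3, up to 4 higher and 4 lower genes of each list by smallest p, and 3 genes nearest to Yap1 and to Ccn2. Some genes that this rule names are not reported here. Alternatives were DESeq2 1.42.0, limma-voom (limma 3.58.1), RLE, upper-quartile or no factors, other filters, a replicate block, the code letter, a minimum fold of 1.5, assembled loci kept, and leaving out samples.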

Additional observations from a re-analysis of the deposited data

Results flagged for a closer look

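In 6 of 86 groups of 4 samples, over 43 genes and ratios, 1 sample stood far from the other 3, where chance gives about 1 in 20. Wwtr1 was 26.1 CPM in knockdown replicate 3 against 31.7 to 31.8 CPM in the other knockdown samples. Ccn1 was 7.54 CPM in control replicate 4 against 3.12 to 3.81 CPM in the other controls. Ccn5 was 1.1 CPM and Nt5e was 14.9 CPM in knockdown replicate 3, against 1.92 to 1.99 and 23.4 to 24.2 CPM in the others of that group. Rassf1 was 25.7 CPM in knockdown replicate 2 against 22.4 to 22.8 CPM. Areg was 0.0515 CPM, a single count, in control replicate 3 and 0 in the other controls.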

How the results depend on the processing

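Among tools, scalings, filters and sample choices, total-count scaling and a minimum fold of 1.5 changed the most. With total counts only, 9831 genes were higher and 1187 lower, 8 members, 24 regulators and 21 targets were higher and 0 regulators and 1 target lower. The reversed values there were Yap1 0.394, Amotl2 0.345, Lats2 0.549, Mob1b 0.0414, Taok1 0.236, Taok2 0.0645, Rassf6 0.0757 and Dock5 0.282 (log2). Lats2, near 0, also changed sign with upper-quartile factors (0.0511) and without knockdown replicate 3 or 4 (0.0332 and 0.00206), and ranged from -0.0896 to 0.0332 over the samples left out. A minimum fold of 1.5 left 2399 genes higher and 1322 lower, 2 members higher, 8 regulators higher and 0 lower, and 1 target lower; the stricter hypothesis is the cause by construction, and for the scaling the cause was not tested. Leaving out single samples gave 3 to 6 members higher and 0 to 1 lower, the latter Yap1 without control replicate 4, and the higher counts include Ankrd1, which then passes the filter. All genes gave 4091 to 4811 higher and 3764 to 4493 lower, and regulators 8 to 13 lower. The motif stood in 2 of the 7 members with a window within the 150 bases nearest the start, 100 of them upstream, against 8.13% of all genes with a window. With the replicate block, 4415 genes were higher and 4067 lower and 4 and 0 members. The block changed the call of Stk4 alone among named genes. For a check of pairing, the log2 CPM of each gene was taken as a deviation from its group mean. These deviations correlated across genes at -0.128, -0.0383, 0.0584 and 0.148 between same-numbered samples, so no pairing is taken. The 3 ratios kept their sign, with adjusted p of 0.0857 to 0.286; the smallest exact permutation p is 0.0286 with 4 or 3 against 4 samples and 0.1 with 3 against 3, and 0.0857 is the least that a ratio alone at 0.0286 can reach after adjustment, so not passing says little. Tead4 and Ankrd1 are limited by depth.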

Other observations

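Within the angiomotin family, Amot made up 13.7 to 19.4% of the summed level per kb of Amot, Amotl1 and Amotl2 in the controls and 22.9 to 26% in the knockdown samples, without overlap. Amotl2 made up 51.1 to 65% and 50.1 to 58%, and Amotl1 21.2 to 30.8% and 18.7 to 27%, both with overlap. Among the CCN genes, Ccn2 made up 34.1 to 76.8% of the family's level per kb in the controls and 35.8 to 54.2% in the knockdown samples, and Ccn1 18 to 55.2% and 37.7 to 57.2%. Control replicate 4 was the control with the lowest share of Ccn2 and the highest of Ccn1. These shares were described after the values were seen and were not tested.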
